A study of Mus musculus with 20 samples.

Results

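The genes described here are the chemokines and the chemokine receptors, followed in left ventricular tissue of mice lacking the de novo DNA methyltransferases Dnmt3a and Dnmt3b in cardiomyocytes. Members were all probes annotated to a gene symbol made of Ccl, Cxcl, Ccr or Cxcr and a number, or to Cx3cl1, Cx3cr1 or Xcl1. This rule found 78 probes of 53 genes among 45281 probes, which name 19057 genes. Of the 53 genes, 33 had 1 probe and 20 had several, with up to 5 for Cxcl12. Cxcl5, Ccl21b and Ccl27b were not analysed here.

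RNA was measured on Illumina bead chips with 1 array per mouse, in 4 CTL and 4 DKO hearts after sham surgery and in 6 hearts of each genotype after TAC. TAC (transverse aortic constriction) narrows the aortic arch and puts a pressure load on the left ventricle, and sham mice had no constriction. All mice were male, were operated on at an age of 10 to 12 weeks and were killed 4 weeks later, at 14 to 16 weeks. CTL mice carried floxed alleles of Dnmt3a and Dnmt3b on both chromosomes without Cre. DKO (double knockout) mice carried the same floxed alleles plus a Cre driven by the promoter of the atrial myosin light chain MLC2a, which is active in cardiomyocytes from early heart development. The deletion was thus aimed at cardiomyocytes and not at the leukocytes, fibroblasts and vessel cells of the heart. The design asks what loss of the enzymes does to the heart with and without pressure load. In tissue, fewer cells of a type and less RNA per cell cannot be told apart.

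Chemokines are small secreted proteins that attract leukocytes, and they are named CC, CXC, CX3C or XC for the spacing of their first cysteines. They bind receptors that signal through inhibitory G proteins, and most receptors sit on leukocytes. Inflammatory ligands such as CCL2 and CCL7 recruit monocytes through CCR2. Homeostatic ligands such as CXCL12, CCL19 and CCL21 guide progenitor cells and lymphocytes at rest. Monocytes and macrophages that use CCR2 and CX3CR1 are the best known chemokine-guided cells of the pressure-loaded heart.

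The deposited sham arrays and TAC arrays had been quantile normalized as separate sets, with array medians of 47.5 and 58.6 in intensity, so the normalization set and the surgery cannot be told apart. Values below are intensities after quantile normalization over all 20 arrays, and differences are log2 differences. No detection p-values were used, since the table holds only 1 value per probe and array. Correlations between arrays ran from 0.949 to 0.994. The 3 probes for Dnmt3a were below the median probe in all 4 groups and 1 of the 2 probes for Dnmt3b was above it, with a mean of 112 ± 4.25 (SD, n = 4) in sham CTL and 101 ± 6.82 (SD, n = 4) in sham DKO hearts. No probe of either gene was called between genotypes, and where these probes lie relative to the deleted exons is not known here, so they do not check the genotype. In the paper's quantitative PCR, Dnmt3a was still strongly expressed in adult hearts and Dnmt3b almost only in embryonic stem cells. Levels on these probes therefore do not rank the genes. The paper checked the deletion itself in sorted cardiomyocytes and cardiomyocyte nuclei. All 8 measured markers of ventricular cardiomyocytes were above the median probe in all groups.

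Chemokine and receptor probes were above the median probe about as often as all probes. The median probe stands for the median of all values over probes and arrays, at an intensity of 53.9. In all 4 groups 31 of the 78 members (39.7%) had means above it, against 39.5% of all probes. A further 34 members were above it in no group and 13 in some groups. A stricter background was the 95th percentile of 1506 probes for olfactory and vomeronasal receptors, which lay between 56.3 and 60.6 in the 4 groups. It was exceeded in all groups by 27 members (34.6%), against 33.5% of all probes. Probes differ in how brightly they bind, so levels are read against background and not from gene to gene.

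Ligands were more often measurable than receptors. By the brightest probe of each gene, 12 of 22 CC ligands were above the median probe in all 4 groups. These were Ccl4, Ccl5, Ccl6, Ccl7, Ccl8, Ccl9, Ccl11, Ccl12, Ccl21a, Ccl21c, Ccl25 and Ccl27a, of which Ccl6 and Ccl8 did not pass the stricter reference in every group. Ccl2, Ccl19, Ccl20, Ccl24 and Ccl26 were above the median probe in some groups, and Ccl1, Ccl3, Ccl17, Ccl22 and Ccl28 in none. Of 12 CXC ligands, Cxcl1, Cxcl9, Cxcl12, Cxcl14 and Cxcl16 were above both references in all groups. Cxcl10 and Cxcl17 were above the median probe in some groups, and Cxcl2, Cxcl3, Cxcl11, Cxcl13 and Cxcl15 in none.

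No CC receptor of 10 was above the median probe in all 4 groups. Ccr4, Ccr6, Ccr7 and Ccr9 passed it in some groups, and Ccr1, Ccr1l1, Ccr2, Ccr3, Ccr8 and Ccr10 in none. The probes of Ccr2, the receptor of the monocyte ligands, had group means between 44.1 and 49.1. Of 6 CXC receptors, Cxcr4 and Cxcr5 were above the median probe in all groups, Cxcr5 with means of only 54.4 to 59.8, and Cxcr1, Cxcr2, Cxcr3 and Cxcr6 in none. Cx3cl1 and its receptor Cx3cr1, which marks resident macrophages and patrolling monocytes, were above both references in all groups, and Xcl1 was above neither. For genes not above background, intensities are compressed and differences are hard to detect by these probes, which does not show that the transcript was absent.

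**Figure D1:**
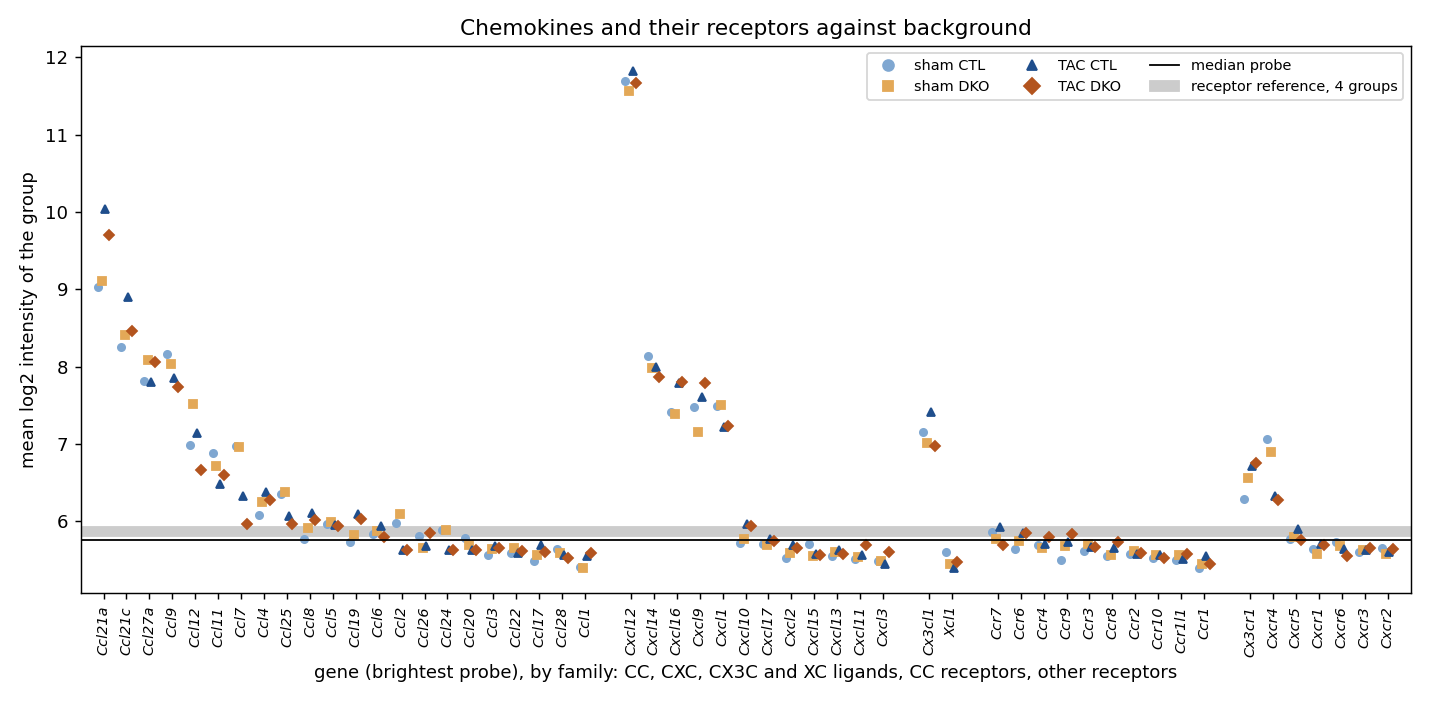
Mean log2 intensity (vertical axis) of the brightest probe of each of the 53 genes (horizontal axis, by family) in the 4 groups, with the median probe as a line and the range of the olfactory and vomeronasal receptor reference as a grey band. For 21 genes all 4 points lie above the line, for 21 all lie on or below it, and no CC receptor has all 4 above it.

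Many members lie near each other in the genome. In the RefSeq annotation of the mouse build GRCm38.p6, 34 of 52 placed members fell into 10 gene clusters. Successive members of a cluster lay at most 15 protein-coding genes apart, so other genes can lie between them. Ccl2, Ccl7, Ccl11, Ccl12, Ccl8 and Ccl1 formed a cluster on chromosome 11, and Ccl5, Ccl9, Ccl6, Ccl3 and Ccl4 a second cluster there. Ccl19 and Ccl21a were clustered on chromosome 4, Cxcl9 and Cxcl10 on chromosome 5, and Ccl22, Cx3cl1 and Ccl17 on chromosome 8. In the cluster of Ccl2, the probes of Ccl7 and Ccl12 were well above background while that of Ccl1 was below it. Of the clustered genes Ccr9, Cxcr6, Ccr1, Ccr1l1, Ccr3 and Ccr2 on chromosome 9, all but Ccr9 were above the median probe in no group.

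Because DNMT3A and DNMT3B methylate CpG dinucleotides, the promoters of the genes called in any comparison below are shown with their CpGs. RefSeq windows of 250 bases before the transcript start were found for 39 of the 53 genes, with 43 windows in all. Those windows held a median of 3 CpGs, with quartiles of 2 and 6.5, against 6 with quartiles of 2 and 16 in 32851 mouse windows. Of the 6 called genes, Ccl12, Ccl21a, Cxcl9 and Cxcr4 had a window, and Ccl7 and Ccl21c had no entry. Each is printed 5′ to 3′ in the direction of transcription, with CpGs in capitals.
Ccl12 (chr11:82101595-82101844, plus strand): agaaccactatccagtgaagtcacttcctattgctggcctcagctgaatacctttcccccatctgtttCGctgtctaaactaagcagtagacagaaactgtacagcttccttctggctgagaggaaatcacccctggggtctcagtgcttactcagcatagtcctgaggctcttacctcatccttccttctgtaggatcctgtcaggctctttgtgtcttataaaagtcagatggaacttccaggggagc
Ccl21a (chr4:42773992-42774241, minus strand): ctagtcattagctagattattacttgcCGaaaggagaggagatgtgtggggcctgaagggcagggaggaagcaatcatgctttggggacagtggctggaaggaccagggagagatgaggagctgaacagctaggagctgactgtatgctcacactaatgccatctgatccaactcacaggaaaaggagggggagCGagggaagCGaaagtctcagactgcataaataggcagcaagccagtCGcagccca
Cxcl9 (chr5:92328080-92328329, minus strand): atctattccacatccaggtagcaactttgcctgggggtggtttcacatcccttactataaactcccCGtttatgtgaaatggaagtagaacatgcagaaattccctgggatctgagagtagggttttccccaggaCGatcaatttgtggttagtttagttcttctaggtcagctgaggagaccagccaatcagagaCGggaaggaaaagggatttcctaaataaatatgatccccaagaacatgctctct
Cxcr4 (chr1:128592300-128592549, minus strand): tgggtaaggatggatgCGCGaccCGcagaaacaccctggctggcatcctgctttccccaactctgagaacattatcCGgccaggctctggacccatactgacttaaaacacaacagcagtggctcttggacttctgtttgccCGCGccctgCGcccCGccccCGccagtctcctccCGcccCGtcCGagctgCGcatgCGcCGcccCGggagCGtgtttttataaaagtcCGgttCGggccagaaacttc
The window of Ccl12 held 1 CpG, that of Cxcl9 held 3, that of Ccl21a held 4 and that of Cxcr4 held 19. Only 6 of the 43 windows held over 10 CpGs, so Cxcr4 was among the CpG-rich members and the other 3 were not. The TATA box letters TATAAA, searched on both strands, were present in the windows of Ccl12, Cxcl9 and Cxcr4. They were found in 25.6% of the member windows and in 12.4% of all windows. An NF-kB motif, searched in 1 strict form on both strands, was found in 23.3% of the member windows and 7.25% of all windows. That form was in none of the 4 windows shown, and shorter or looser forms were not searched. The motifs TGANTCA and TTCNNNGAA were in none of the 4 either, with 11.6% and 9.3% of the member windows and 6.75% and 7.02% of all windows. Methylation was not measured on these arrays, and a match of letters is not a bound site.

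Few chemokines differed between TAC and sham hearts, at about the rate of all genes. A probe was called where the limma p-value, adjusted over all 45281 probes by the method of Benjamini and Hochberg, was under 0.05 and the fold change over 1.5. In CTL hearts 5 of the 78 members were called (6.41%), with 5.17% of all probes called. Those were 1 probe of Ccl21a and 2 of Ccl21c, which were higher after TAC, and 1 probe each of Ccl7 and Cxcr4, which were lower. The shares over the whole array were 1.76% called higher and 3.40% called lower. In DKO hearts 6 members were called (7.69%), with 6.74% of all probes called. Ccl21a and Cxcl9 were higher, and both probes of Ccl7 and 1 probe each of Ccl12 and Cxcr4 were lower, against 2.46% of all probes called higher and 4.27% lower. With each array centred on its median in place of quantile normalization, no member was called higher in either genotype, and 8 were called lower in each. In both genotypes 9 members (11.5%) did not overlap between TAC and sham arrays, with 16.1% of all probes in CTL and 20.5% in DKO hearts. Under median centring the share of all calls that were higher moved too, from 798 higher and 1541 lower to 186 and 3848 in CTL hearts, and from 1116 and 1934 to 204 and 4166 in DKO hearts. The falls of Ccl7, Ccl12 and Cxcr4 kept their direction under each scaling, whereas the rises of Ccl21a, Ccl21c and Cxcl9 kept their direction in these comparisons but not their calls.

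**Figure D2:**
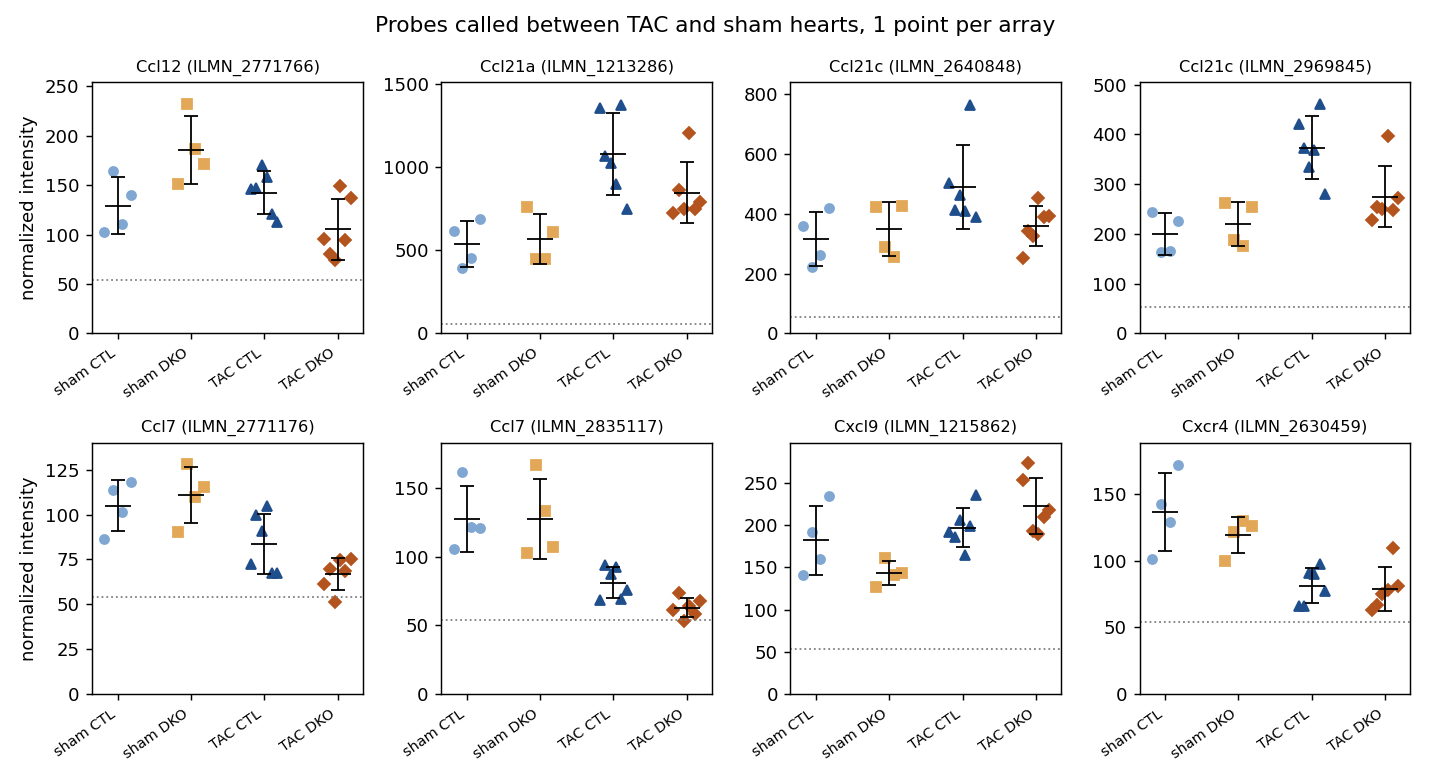
Normalized intensity (vertical axis, from 0) of the 8 probes called between TAC and sham hearts, with 1 point per array in each of the 4 groups. Black lines are the mean ± SD (n = 4 sham, n = 6 TAC) and the dotted line is the median probe at 53.9. Both Ccl7 probes and Cxcr4 have lower means in both TAC groups, and the Ccl21a probe higher ones.

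The ligands of CCR2 include Ccl2, Ccl7, Ccl8 and Ccl12, which recruit monocytes. By their brightest probes, 1 of the 4 was called lower in CTL hearts and 2 in DKO hearts, and none was called higher. Of all probes, 3.40% were called lower in CTL and 4.27% in DKO hearts. The median difference of the 4 ligands was -0.09 in CTL and -0.66 in DKO hearts, against 0.01 and 0.02 over all probes. None of the 4 was called in the test of whether the response to TAC differed between genotypes. Ccl7 fell in both genotypes. Its brighter probe in sham hearts, ILMN_2835117, had 105, 161, 122 and 121 in the 4 sham CTL arrays, and a lowest value of 68.2, a median of 81.4 and a highest of 94.0 in the TAC CTL arrays. The sham DKO arrays had 103, 167, 133 and 107, and the TAC DKO arrays had 53.2, 62.7 and 73.4 as lowest, median and highest. TAC and sham arrays did not overlap in either genotype.

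Ccl7 by this probe fell by 0.64 (SE 0.13, adjusted p = 0.000835) in CTL and by 0.996 (SE 0.13, adjusted p = 3.95e-06) in DKO hearts on the log2 scale. Without sham CTL replicate 2, the sham array with the highest value, the difference in CTL hearts was -0.52 and no longer past the fold threshold. The second Ccl7 probe, ILMN_2771176, had means of 105 ± 14.2 (SD, n = 4) and 83.8 ± 16.7 (SD, n = 6) in sham and TAC CTL hearts, whose arrays overlapped. In DKO hearts it went from 111 ± 15.7 (SD, n = 4) to 66.8 ± 9.08 (SD, n = 6) without overlap. Accordingly it was called in DKO hearts, where it fell by 0.73 (adjusted p = 0.000204), and not in CTL hearts (-0.34, adjusted p = 0.0783). The TAC DKO means of both probes were close to the median probe, where intensities are compressed, so these folds may be understated.

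Ccl12, a mouse relative of CCL2, showed a different order of groups. The probe ILMN_2771766 had 102, 164, 110 and 140 in sham CTL arrays and 151, 232, 187 and 172 in sham DKO arrays. TAC CTL arrays had a lowest value of 113, a median of 146 and a highest of 170, and TAC DKO arrays had 74.4, 94.9 and 149. In DKO hearts all TAC arrays were below all sham arrays, by a gap of less than 2 units, and in CTL hearts the groups overlapped. Ccl12 fell by 0.85 (SE 0.18, adjusted p = 0.000714) after TAC in DKO hearts, while the difference in CTL hearts was 0.15 (adjusted p = 0.608). A second Ccl12 probe, ILMN_3161805, was not called in either genotype, with differences of 0.20 in CTL and -0.29 in DKO hearts (adjusted p = 0.276 and 0.0829).

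Ccl2, the prototype monocyte chemoattractant, was close to background. Its probe had 59.3, 68.0, 64.2 and 60.0 in sham CTL and 62.9, 73.6, 73.3 and 65.0 in sham DKO arrays. After TAC the CTL arrays lay between 42.3 and 57.5 with a median of 50.05, and the DKO arrays between 45.0 and 53.2 with a median of 49.6. The groups did not overlap in either genotype, at log2 differences of -0.34 (adjusted p = 0.00147) in CTL and -0.47 (adjusted p = 2.9e-05) in DKO hearts. These were below the fold threshold, and since both TAC means were under the median probe the fold has little meaning. Ccl8 had means of 54.8 ± 2.78 (SD, n = 4) in sham CTL and 70.4 ± 17.7 (SD, n = 6) in TAC CTL hearts (0.33, adjusted p = 0.0818). The CCR2 receptor itself could not be followed, since both Ccr2 probes were below the median probe in all groups.

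Values of monocyte and macrophage markers are given beside the CCR2 ligands, and their part in the result was not tested. Of 12 measured markers 11 were above the median probe in all groups. Their summed intensity ran from 2521 to 3890 in sham CTL, 3467 to 3745 in sham DKO, 2775 to 4408 in TAC CTL and 2883 to 3842 in TAC DKO hearts, so the groups overlapped. C1qb, a complement component, and Lgals3 (galectin 3) were called higher after TAC in both genotypes. Lyz2 (lysozyme) was called lower in both, at -1.58 in CTL and -1.84 in DKO hearts, Cd163 was called lower in CTL hearts and Adgre1 (the F4/80 antigen) in DKO hearts. These markers thus moved in both directions. Over the whole array 1.76% of probes were called higher and 3.40% lower in CTL hearts, and 2.46% and 4.27% in DKO hearts.

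Of the 3 measured ligands of CCR7, which guide lymphocytes and dendritic cells to lymphoid organs, 2 were called higher in CTL hearts (Ccl21a and Ccl21c), 1 in DKO hearts (Ccl21a), and Ccl19 in neither. Among all probes 1.76% were called higher in CTL and 2.46% in DKO hearts. Ccl21a and Ccl21c are near-identical copies in the mouse, and reads by a probe for 1 copy may include the others, so which copy was measured is uncertain. The Ccl21a probe had 618, 393, 453 and 687 in sham CTL arrays and 762, 447, 448 and 608 in sham DKO arrays. TAC CTL arrays had a lowest value of 751, a median of 1044 and a highest of 1375, and TAC DKO arrays had 723, 770 and 1207. TAC and sham arrays were apart in CTL hearts and overlapped in DKO hearts. Within each sham group replicates 1 and 4 were the highest on the Ccl21a probe and on both Ccl21c probes.

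Ccl21a rose by 1.01 (SE 0.19, adjusted p = 0.000295) in CTL hearts and by 0.59 (SE 0.19, adjusted p = 0.0198) in DKO hearts. With median-centred arrays the differences were 0.53 and 0.11, and neither was called. The rise in DKO hearts was at the fold threshold and lost its call without sham DKO replicate 2 (0.49) or 3 (0.49), or TAC DKO replicate 2 (0.58) or 4 (0.49). In CTL hearts the call was kept whichever array was left out.

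The Ccl21c probe ILMN_2969845 had 244, 163, 166 and 227 in sham CTL and a lowest value of 281, a median of 371 and a highest of 461 in TAC CTL arrays, without overlap. It rose by 0.91 (SE 0.16, adjusted p = 0.000151) there, and the difference was 0.45 and not called with median-centred arrays. In DKO hearts the same probe had 263, 188, 176 and 254 in sham arrays against 228, 251 and 397 after TAC, which overlapped (0.32, not called). The second Ccl21c probe, ILMN_2640848, had means of 316 ± 89.6 (SD, n = 4) in sham CTL and 491 ± 141 (SD, n = 6) in TAC CTL hearts. This rise of 0.64 (adjusted p = 0.0219) lost its call when sham CTL replicate 2 (0.48) or 3 (0.56) or TAC CTL replicate 5 (0.50) was left out, with the deposited values (0.46), with the replicate number as a block (0.55) and with median-centred arrays (0.16).

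Ccl19, the other CCR7 ligand, which lies near Ccl21a in the genome, was close to background. Its values were 52.8, 53.5, 48.6 and 58.2 in sham CTL arrays, and 58.9, 69.4 and 74.8 as lowest, median and highest in TAC CTL arrays. Those groups did not overlap, by less than 1 unit, and the difference was 0.37 (SE 0.07, adjusted p = 0.000275), below the fold threshold. In DKO hearts it was 0.21 (adjusted p = 0.0229). Ccr7, the receptor, had a mean of 58.7 ± 6.84 (SD, n = 4) in sham CTL and 61.1 ± 4.73 (SD, n = 6) in TAC CTL hearts (0.06, adjusted p = 0.677). Ackr4 lies outside the naming rule and encodes an atypical receptor that takes up CCL19, CCL21 and CCL25 without signalling. It fell in both genotypes, from 375 ± 101 (SD, n = 4) to 207 ± 38.2 (SD, n = 6) in CTL hearts (-0.83, adjusted p = 0.000811) and from 376 ± 28.2 (SD, n = 4) to 188 ± 39.4 (SD, n = 6) in DKO hearts (-1.02, adjusted p = 5.95e-05). None of the 8 measured T and NK cell markers was above the median probe in all groups, and their summed intensity ran from 391.5 to 427.9 in sham CTL, 407.5 to 426.4 in sham DKO, 390.6 to 426.8 in TAC CTL and 399.4 to 433.3 in TAC DKO hearts.

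CXCL9, CXCL10 and CXCL11 are interferon-induced ligands of CXCR3, the receptor of activated T cells. Cxcl9 had 127, 161, 141 and 143 in sham DKO arrays and a lowest value of 189, a median of 213 and a highest of 273 in TAC DKO arrays. All TAC DKO arrays were above all sham DKO arrays. Cxcl9 rose by 0.63 (SE 0.12, adjusted p = 0.000417), which was not called with median-centred arrays (0.21) or without sham DKO replicate 1 (0.57) or TAC DKO replicate 2 (0.57). In CTL hearts sham arrays had 140, 192, 160 and 235 and TAC arrays 165, 195 and 235, which overlapped (0.13, not called).

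Cxcl10, which lies near Cxcl9 in the genome, was near background. By ILMN_3142803 it had means of 53.0 ± 3.78 (SD, n = 4) in sham CTL and 62.9 ± 6.76 (SD, n = 6) in TAC CTL hearts, with an adjusted p of 0.0461 and a log2 difference of 0.24. The dimmer Cxcl10 probe, ILMN_1214419, did not rise, with means of 48.2 in sham CTL and 47.5 in TAC CTL hearts, below the median probe. Cxcl11 and Cxcr3 were below the median probe in all groups. Thus 1 of 3 CXCR3 ligands was called higher in DKO hearts and none in CTL hearts, against 2.46% and 1.76% of all probes.

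CXCR4 is the receptor of CXCL12 and holds progenitor and immune cells in their niches. It was the only member receptor called in any comparison, and it fell in both genotypes. Sham CTL arrays had 101, 143, 129 and 172, and TAC CTL arrays had a lowest value of 66.2, a median of 83.7 and a highest of 97.8, without overlap. Sham DKO arrays had 99.6, 122, 130 and 126 and TAC DKO arrays 63.1, 76.6 and 110, where 1 TAC array lay above the lowest sham array. Cxcr4 fell by 0.74 (SE 0.15, adjusted p = 0.000638) in CTL and by 0.61 (SE 0.15, adjusted p = 0.0027) in DKO hearts. The first was called under every alternative run. In DKO hearts the call was lost with 16 added before the log2 step (-0.52) and without sham DKO replicate 3 (-0.56) or 4 (-0.58) or TAC DKO replicate 1 (-0.56) or 2 (-0.57), while adjusted p stayed between 4.99e-06 and 0.0136.

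Its ligand Cxcl12 was read by 5 probes, none of which was called. The brightest had means of 3323 ± 184 (SD, n = 4) in sham CTL, 3045 ± 369 (SD, n = 4) in sham DKO, 3676 ± 627 (SD, n = 6) in TAC CTL and 3279 ± 524 (SD, n = 6) in TAC DKO hearts. The differences after TAC by this probe were 0.13 and 0.10 (adjusted p = 0.494 and 0.587). Of the other 4, ILMN_2737302 and ILMN_3158250 were above the median probe in all groups and the remaining pair were not. The largest difference of the 5 was 0.37 for ILMN_3158250 in DKO hearts (adjusted p = 0.0727).

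**Figure D3:**
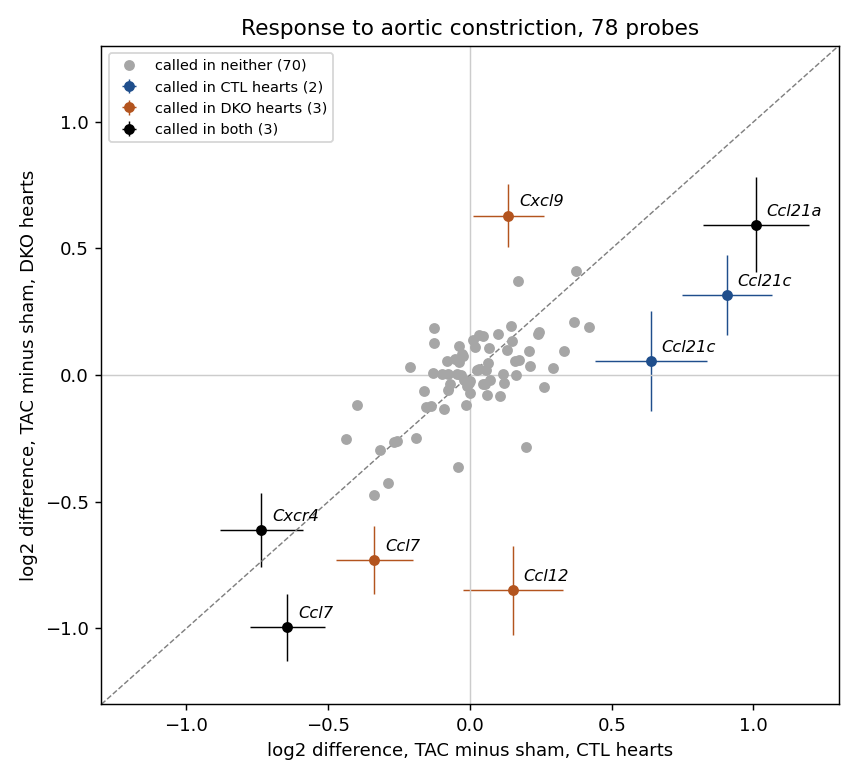
Log2 difference between TAC and sham hearts of the 78 probes in CTL (horizontal axis) and DKO hearts (vertical axis), with a dashed line where both are equal and bars of 1 standard error on the 8 called probes. Ccl21a, Cxcr4 and 1 Ccl7 probe were called in both genotypes, the 2 Ccl21c probes in CTL hearts alone and Ccl12, Cxcl9 and the second Ccl7 probe in DKO hearts alone, and no probe differed by the test of that difference; rises were not called with median-centred arrays.

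The other members gave smaller differences after TAC. The 5 CC ligands Ccl3, Ccl4, Ccl5, Ccl6 and Ccl9 had no called gene by their brightest probes. Nor had the ligands of CCR3 (3), of CCR4 (2), of CCR6, CCR8, CCR9 and CCR10 (5) and of CXCR2 (4). The same held for the 5 homeostatic and other CXC ligands, the 2 CX3C and XC ligands and the 10 CC receptors. At any fold, 13 members had an adjusted p under 0.05 in CTL hearts (16.7%, against 22.0% of all probes) and 13 in DKO hearts (16.7%, against 28.0%). Cxcl16, a membrane-bound ligand and scavenger, was among them in both genotypes by ILMN_2687586, with 171 ± 13.8 (SD, n = 4) in sham CTL and 223 ± 37.7 (SD, n = 6) in TAC CTL hearts (0.37, adjusted p = 0.0211). Its difference in DKO hearts was 0.41 (adjusted p = 0.0089). The other Cxcl16 probe went the other way, with means of 84.9 and 76.6 in sham and TAC CTL hearts, so the 2 probes disagreed. Ccl25, a thymic and gut ligand of CCR9, had 82.3 ± 5.67 (SD, n = 4) in sham CTL and 67.3 ± 4.24 (SD, n = 6) in TAC CTL hearts by its brightest probe ILMN_2942353, without overlap (-0.29, adjusted p = 0.00906). In DKO hearts this probe differed by -0.43 (adjusted p = 0.000212), also without overlap. The dimmer Ccl25 probes did not fall in DKO hearts. From sham to TAC DKO hearts, ILMN_2661722 had means of 58.0 and 61.1, and ILMN_1254200 had 51.4 and 53.3. Ccl24, a second eotaxin-like ligand of CCR3, was near background, at means of 59.3 in sham and 49.7 in TAC CTL hearts (-0.26, adjusted p = 0.0283), with a difference of -0.26 (adjusted p = 0.0209) in DKO hearts. The remaining members at this threshold were Ccr9 (0.24) and Ccl17 (0.21) in CTL hearts and Ccl26 (0.19) and the dimmer probe of Cxcl2 (-0.36) in DKO hearts, each with its mean below the median probe in at least 1 of the compared groups. The brighter Cxcl2 probe, also below the median probe, did not fall, with means of 48.4 in sham DKO and 50.4 in TAC DKO hearts.

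The eosinophil ligand Ccl11 (eotaxin), the macrophage ligand Ccl9, the neutrophil ligand Cxcl1 and Cxcl14, a ligand of epithelia and stroma, were not called. Ccl11 differed by -0.40 and -0.44 on its 2 probes in CTL hearts (adjusted p = 0.0845 and 0.0751), and Ccl9 by -0.32 (adjusted p = 0.111). With median-centred arrays these 4 genes were called lower in CTL hearts, at -0.71 and -0.63 for Ccl11, -0.79 for Ccl9, -0.68 for Cxcl1 and -0.62 for 1 probe of Cxcl14. Ccl4 and Ccl5, inflammatory ligands that attract T cells and monocytes, had differences of 0.29 (adjusted p = 0.0825) and -0.01 (adjusted p = 0.95) in CTL hearts. The 0.29 was that of the brighter Ccl4 probe, and the dimmer had means of 52.8 in sham CTL and 51.7 in TAC CTL hearts. Cx3cr1 varied widely within TAC CTL hearts, from 57.4 to 167 with a median of 114, and its difference of 0.42 was not called (adjusted p = 0.19).

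No chemokine or receptor was called between genotypes. In sham hearts 0 of 78 members passed the thresholds in limma, with 0.102% of all probes called, and 6 (7.69%) had an unadjusted p under 0.05, against 5.55% of all probes. In TAC hearts again 0 members passed, with 0.144% of all probes called, and 11 (14.1%) had an unadjusted p under 0.05, against 8.99% of all probes. At these background shares less than 1 call among 78 probes would be usual, so the count of 0 says little about the members as a set. The intervals say more. All 78 95% intervals of the difference lay within a 2-fold change in sham and in TAC hearts, and 72 of 78 within a 1.5-fold change in each. For members near background such an interval is narrow because the signal is compressed there, and among the 31 members above the median probe 25 lay within a 1.5-fold change in each.

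In sham hearts the 2 Ccl12 probes had the largest positive differences, of 0.53 (95% interval 0.13 to 0.93) for ILMN_2771766 and 0.38 (0.10 to 0.65) for ILMN_3161805. Neither passed the adjustment (adjusted p = 0.777 and 0.729), and CTL and DKO arrays overlapped on both. Cxcl9 had the lowest difference, -0.32 (adjusted p = 0.856). In 4 probes (5.13%, against 3.89% of all probes) the sham genotypes did not overlap, namely 1 each of Ccl8, Cxcr2, Ccl20 and Cxcl12, and all but Ccl8 were below the median probe there in at least 1 group.

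In TAC hearts Cx3cl1 (fractalkine), the membrane-anchored ligand made by endothelium, had the lowest adjusted p of the members. TAC CTL arrays had a lowest value of 127, a median of 176 and a highest of 191, and TAC DKO arrays had 102, 126 and 160. The groups overlapped through TAC CTL replicate 6, the array with the value of 127. The difference was -0.44 (SE 0.11, adjusted p = 0.0861), a fold of 1.36. Without TAC CTL replicate 6 it was -0.53 with an adjusted p of 0.0112, without TAC DKO replicate 5 it was -0.51 with an adjusted p of 0.0202, and with the replicate number as a block the adjusted p was 0.0233. Over all alternatives the adjusted p ran from 0.0112 to 0.279, with the fold under 1.5 throughout. In sham hearts the difference of Cx3cl1 was -0.14.

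The other members at an unadjusted p under 0.05 in TAC hearts were lower in DKO for both probes of Ccl7 (-0.36 and -0.32), both of Ccl21c (-0.45 and -0.43), 1 of Ccl12 (-0.47) and Ccr7 (-0.24). They were higher for the brighter probe of Ccl27a (0.27), a skin-homing ligand, Ccl26 (0.17), Cxcl3 (0.16) and the brighter probe of Cxcl11 (0.13). Cxcl3 and Cxcl11 had all means below the median probe. Adjusted p-values of the members listed in this paragraph ran from 0.291 to 0.552. The dimmer Ccl27a probe was not among them, with a mean of 83.5 after TAC for CTL and 85.7 for DKO. Nor was the dimmer Cxcl11 probe, at 45.6 and 47.8.

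**Figure D4:**
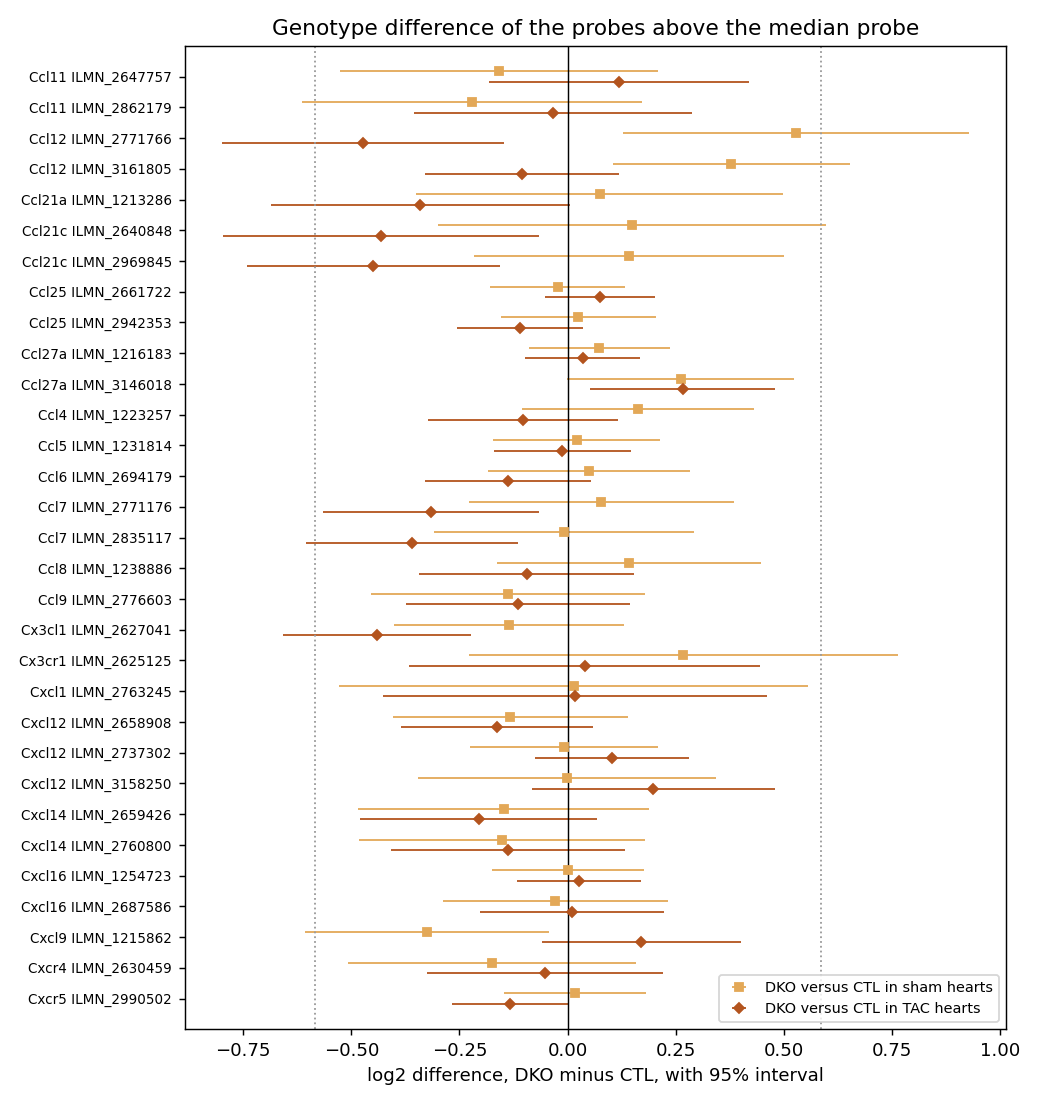
Log2 difference between DKO and CTL hearts (horizontal axis) with its 95% interval, in sham and in TAC hearts, for the 31 probes above the median probe in all 4 groups. Dotted lines mark a 1.5-fold change. No probe was called, and the Ccl12 probes lie to the right of 0 in sham hearts and to the left in TAC hearts.

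Whether the response to TAC differed between genotypes was tested as an interaction. Again 0 of 78 members were called, with 0.00221% of all probes called, and 9 members (11.5%) had an unadjusted p under 0.05, against 4.71% of all probes. The lowest was that of Ccl12 by ILMN_2771766, at -1.0 (95% interval -1.52 to -0.48, adjusted p = 0.939), and its second probe gave -0.48 (adjusted p = 0.939). Cxcl9 was at 0.49 (95% interval 0.13 to 0.86) and the Ccl21c probes at -0.59 and -0.58, each with an adjusted p of 0.939. Genes called after TAC in only 1 genotype are therefore not shown to respond differently in the other.

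Genes of the same pathway outside the naming rule gave no call for genotype or for the interaction. The counts after TAC stand beside the 5.17% of all probes called in CTL and the 6.74% called in DKO hearts, and the lists were chosen with results of these data known. Of 4 other chemokines, Mif, a cytokine that also binds CXCR4 and CXCR2, rose in both genotypes (0.69 in CTL and 0.94 in DKO hearts). Pf4, which is platelet factor 4 and a CXC ligand, fell in both, from 433 ± 60.2 (SD, n = 4) to 215 ± 32.0 (SD, n = 6) in CTL hearts (-1.01) and by 1.39 in DKO hearts. Of 22 measured genes of signal transduction behind the receptors, 1 was called higher in CTL hearts, and 2 higher and 1 lower in DKO hearts. Elmo1, a partner of DOCK proteins in cell migration, rose in both (0.66 and 0.84), and the G protein subunit Gnb1 rose (0.65) and Stat3 fell (-0.59) in DKO hearts. Of 20 measured inducers, such as cytokines, NF-kB and AP-1 factors, Fos fell in both genotypes (-2.05 and -1.88) and Nfkb2 in DKO hearts (-0.75). These genes were not recomputed with median-centred arrays.

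Markers of other cells of the ventricle moved with surgery too, and their part in the chemokine results was not tested. The shares of all probes called were 1.76% higher and 3.40% lower in CTL hearts, and 2.46% higher and 4.27% lower in DKO hearts. Of 6 leukocyte markers, Laptm5 and Cd52 were called higher and Cd53 lower in TAC CTL hearts, and Cd53 lower in TAC DKO hearts. Their summed intensity ran from 1424 to 1628 in sham CTL, 1571 to 1790 in sham DKO, 1603 to 3257 in TAC CTL and 1742 to 2560 in TAC DKO hearts. Of 8 measured cardiomyocyte markers, Tnni3, Ryr2 and Pln were called lower in both genotypes and Mybpc3 higher in CTL hearts. Their sum ran from 107900 to 124100 in TAC CTL and from 122700 to 130700 in sham CTL hearts, which overlapped, and from 104200 to 117800 in TAC DKO and 124700 to 134300 in sham DKO hearts, which did not. Of 8 smooth muscle and pericyte markers, Myh11 and Tagln were called higher in both genotypes, and Acta2 and Cspg4 also in DKO hearts. Their sum ran from 6534 to 8431 in sham CTL, 5171 to 6419 in sham DKO, 6370 to 11010 in TAC CTL and 6463 to 12630 in TAC DKO hearts. Of 8 fibroblast markers, Col1a1 and Lum were called higher and Col3a1 lower in both genotypes, and Tcf21 higher in DKO hearts. Their sum ran from 7900 to 10080 in sham CTL, 8405 to 10370 in sham DKO, 8112 to 11890 in TAC CTL and 7389 to 9923 in TAC DKO hearts. Endothelium is a known source of Cx3cl1, and its 9 measured markers summed to 5079 to 6794 in sham CTL, 4788 to 5820 in sham DKO, 4792 to 5874 in TAC CTL and 4853 to 6330 in TAC DKO hearts, with Cldn5 called lower in TAC CTL and Vwf higher in TAC DKO hearts.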

How the data were processed

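Left ventricular RNA of 20 mice was labelled and hybridised to Illumina bead chips, 1 array per mouse. The authors deposited 1 table of normalized intensity per probe and array, on a linear scale, made per the labels with GenomeStudio 2010.3. Background handling is not given in the sources used here. Among the deposited intensity columns, sorted values were equal within 0.2% for at least 97.57% of ranks among sham arrays and 99.91% among TAC arrays, but for 0.404% between the sets. Intensities ran from 28.7 to 32486, and the number of arrays limits the precision.

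Groups came from the sample labels. From the intensities, log2 values were quantile normalized over 20 arrays and fitted with limma 3.58.1 in R 4.3.3 as 4 group means, with 16 residual degrees of freedom. The contrasts tested were genotype in sham and in TAC hearts, TAC against sham in CTL and in DKO hearts, and the interaction. Calls needed a fold over 1.5 and an adjusted p (Benjamini-Hochberg, over 45281 probes) under 0.05, thresholds taken from the study's methods. P-values measure the spread between mice. No array pair held identical values. The genotype tests alone were checked on simulated data with independent noise. Those data held no surgery effect and no separate normalization of sham and TAC arrays, so they do not check the other contrasts.

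Probes were named through GEO's platform annotation: 34885 had 1 gene, 18 several and 10378 none, and all 78 members were matched by identifier. Named genes were those called, the 6 with the smallest p per comparison among members above the median probe in a compared group, members above the receptor reference in all groups, and the partner receptors or ligands of called genes. Members and gene lists were chosen with earlier results of these data known. Role lists were counted by the brightest probe of each gene. Alternatives covered the deposited values, median centring, 16 added before log2, dim probes left out, a fit on the compared groups alone, an intensity trend, no fold threshold, a replicate block and each array left out. Promoters came from RefSeq (GRCm38.p6).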

Additional observations from a re-analysis of the deposited data

Results flagged for a closer look

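In 31 named probes of 22 genes, each of the 4 groups was searched for a single array that lay far from the rest of its group (Dixon's test), which gave 10 arrays in 124 groups. Chance gives about 1 in 20 groups, and no explanation was tested.

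Among CCR7 ligands, Ccl19 had 58.88 in TAC CTL replicate 1 against 68.9 to 74.84 in the other 5, and 61.62 in TAC DKO replicate 5 against 65.68 to 66.76. TAC DKO replicate 4 was high for both Ccl21a, at 1207 against 723.1 to 862.6, and Ccl21c by ILMN_2969845, at 397 against 227.7 to 272.3. Ccl21a and Ccl21c are near-identical copies, so their probes are not independent. Ccl21c by ILMN_2640848 had 765.3 in TAC CTL replicate 5 against 391 to 502.3.

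Cx3cl1 had 126.6 in TAC CTL replicate 6 against 172.2 to 191.3 in the others. Ccl26 had 44.86 in sham DKO replicate 4 against 52.13 to 53.38, all below the median probe. Ccl27a by ILMN_1216183 had 72.27 in TAC DKO replicate 1 against 85.98 to 89.74. Ccl9 had 267.9 in sham CTL replicate 3 against 292.6 to 296.3. Cxcl1 had 233.1 in TAC CTL replicate 4 against 122.4 to 153.3.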

How the results depend on the processing

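The called differences between TAC and sham hearts kept their direction under every alternative run. So did those of Ccl2, Ccl19 and the brightest Ccl25 probe in both genotypes. Differences that were not called could change sign: over the alternatives Ccl12 by ILMN_2771766 ran from -0.22 to 0.27 and Cxcl9 from -0.30 to 0.27 in CTL hearts, and the Ccl21c probes from -0.15 to 0.41 and from -0.42 to 0.17 in DKO hearts. In both genotype comparisons and in the interaction 0 members were called throughout. After TAC in CTL hearts 5 members were called, and 8 (0 higher, 8 lower) with arrays centred on their medians, 13 without the fold threshold and 3 to 6 when 1 array was left out, with 3 without sham CTL replicate 2. In DKO hearts 6 were called, and 3 (0 higher) with 16 added before log2, 13 without the fold threshold, 8 (0 higher) with centred arrays, 4 (0 higher) with the deposited values and 3 to 6 when 1 array was left out, with 3 without TAC DKO replicate 2. The deposited values moved the median of all probes by 0.283 in CTL and 0.290 in DKO hearts between TAC and sham. The share of probes above the median probe was 39.7% with the deposited values and 39.6% by brightest probes. The call of Ccl12, both calls of Ccl7 in DKO hearts and that of Cxcr4 in CTL hearts were kept in all 28 alternatives. Ccl7 in CTL hearts lost its call with 16 added (-0.56). Ccl19 in CTL hearts passed the fold threshold with the deposited values (0.62). With the deposited values Ccl21c by ILMN_2640848 in CTL hearts (0.46) and Ccl21a (0.41) and Cxcl9 (0.52) in DKO hearts were not called. Ccl21a and Cxcl9 in DKO hearts were also not called with 16 added (0.58 each). The separate normalization of sham and TAC arrays limits every comparison of surgery, and signal near background limits those of receptors.

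The replicate number was also fitted as a block, with an effect shared by same-numbered arrays of both surgeries and both genotypes. With it, 0 members were called in sham and 0 in TAC hearts between genotypes, 4 after TAC in CTL hearts, 6 in DKO hearts and 0 in the interaction. The block ended the call of Ccl21c by ILMN_2640848 (0.55) and gave Cx3cl1 an adjusted p of 0.0233 between genotypes in TAC hearts. The numbers were not treated as pairs, because the labels do not say that they mark a shared litter or batch and not every same-numbered pair was correlated. Of 10 such pairs, each of a CTL and a DKO array after the same surgery, 6 had correlations over 0.1, within a range of -0.186 to 0.38. Of the 10 pairs, 5 correlated best with their own number, a hint from the data and not from the design.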
